A study of Mus musculus with 5 samples.

Results

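The mesoderm and endoderm lineage genes described here are T, Eomes, Mixl1, Gsc, Tbx6, Sox17, Gata4, Gata6, Kdr and Afp. They were chosen by name, as regulators and markers of lineages other than the neural one, and every probe whose RefSeq accession maps to one of these symbols was taken. They are 10 of the 19893 genes named on the array and have 14 of its 55681 mouse probes.

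RNA came from mouse embryonic stem (ES) cells and from 4 later stages of a differentiation, through embryoid bodies, to spinal motor neurons. Embryoid bodies are floating aggregates in which ES cells begin to differentiate, and cells of lineages other than the intended one can arise in them. Every sample was labelled wild type and male, and each was hybridised to 1 one-colour Agilent array. The ES sample was undifferentiated. The Day2 embryoid bodies had been in retinoic acid (RA) for 8 hours, the Day3 bodies for 1 day and the Day4 bodies for 2 days, and the Day7 motor neurons had been induced for 5 days. Per the labels, the inducers were RA and Shh, given between day 2 and day 5, while the study's text names the Smoothened agonist SAG in place of Shh. The labels do not say which of the study's ES lines was used. With 1 array per time point there is no spread between replicates, so no difference below has a test. A gene is called raised or lowered where its change was at least 2-fold. The error given after ± is the scanner software's estimate for that spot on the log2 scale, which leaves out the variation between cultures.

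In the embryo, mesoderm and definitive endoderm both arise from epiblast cells that pass through the primitive streak under Nodal and Wnt signals. T (Brachyury) and Eomes are T-box transcription factors that act in the streak, Mixl1 and Gsc are homeobox factors of the streak and its anterior end, and Tbx6 is a T-box factor that holds posterior progenitors to a mesodermal rather than a neural fate. Sox17, Gata4 and Gata6 act in both definitive and extraembryonic endoderm, and Gata4 and Gata6 also in heart mesoderm. Kdr encodes the VEGF receptor of endothelial and blood progenitors, and Afp encodes alpha-fetoprotein, the main serum protein made by yolk sac endoderm and fetal liver.

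Promoter sequence was at hand from RefSeq (mouse assembly GRCm38.p6) for 6 of the 10 genes, T, Eomes, Gsc, Kdr, Afp and Tbx6. The 200 bases before the start site are shown for T, Eomes and Gsc, the streak factors with an entry that were lower in Day7 cells than in ES cells. They lie at chr17:8434223-8434422 on the plus strand for T, at chr9:118477989-118478188 on the plus strand for Eomes and at chr12:104473237-104473436 on the minus strand for Gsc. Each is written 5′ to 3′ along its gene, and capitals mark matches, on either strand, to the TATA box core TATAA, the CCAAT box CCAAT and the GC box GGGCGG.
T: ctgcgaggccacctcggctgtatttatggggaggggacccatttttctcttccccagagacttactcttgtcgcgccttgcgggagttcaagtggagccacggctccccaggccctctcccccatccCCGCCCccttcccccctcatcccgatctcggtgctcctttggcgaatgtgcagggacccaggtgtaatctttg
Eomes: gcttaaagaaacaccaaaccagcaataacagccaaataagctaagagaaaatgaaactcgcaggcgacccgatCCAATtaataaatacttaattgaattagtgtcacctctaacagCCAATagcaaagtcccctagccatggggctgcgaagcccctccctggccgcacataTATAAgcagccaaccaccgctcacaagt
Gsc: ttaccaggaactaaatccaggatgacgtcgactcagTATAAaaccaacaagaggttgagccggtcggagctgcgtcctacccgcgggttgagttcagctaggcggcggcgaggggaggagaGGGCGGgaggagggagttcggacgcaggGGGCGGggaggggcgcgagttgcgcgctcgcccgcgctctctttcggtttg

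The 3 promoters had little in common in these letters. T held 1 GC box, at -73 from the start, and neither of the other elements. Eomes held a TATAA at -28 and CCAAT at -127 and -84. Gsc held a TATAA at -164 and GC boxes at -79 and -51. Among the 32851 promoter windows of the same length, 18.5% held TATAA, 29.3% held CCAAT and 31.0% held GGGCGG, so none of these is rare. G and C made up 61.5% of the T window, 46.0% of the Eomes window and 64.0% of the Gsc window, against a median of 53.0% over all windows. CpG dinucleotides numbered 10, 6 and 22, against a median of 5. None of the 6 windows held the T-box core GGTGTGA (in 2.64% of all windows), the TCF/LEF core CTTTGA (10.9%) or the GATA core AGATAA (7.80%). The searches were made on both strands, and these motifs do not overlap one another.

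The labelled cell states were checked against marker genes. Of the 4 ES cell markers, Pou5f1, Zfp42 and Esrrb were lowered from ES to Day7, Pou5f1 from a quantile-normalized log2 signal of 12.39 to 8.22, while Nanog went against its label, at 9.20 (ES), 6.79 (Day2), 8.85 (Day3), 9.98 (Day4) and 8.80 (Day7). All 5 motor neuron markers (Isl1, Lhx3, Chat, Slc18a3 and Tubb3) were raised from ES to Day7, Isl1 by 6.06 on the log2 scale. The progenitor marker Nkx6-1 rose from 6.72 in ES cells to 12.73 on Day4. Olig2 already read 10.34 in ES cells, and was lowered to 8.47 and 7.87 after 8 hours and 1 day of RA. It then read 11.47 on Day4 and 7.35 on Day7. Between 57.5% and 65.7% of mouse probes were well above background on the ES, Day3, Day4 and Day7 arrays, and 86.7% on the Day2 array. On that array 64.6% of the 96 ERCC probes, which match synthetic spike-in RNAs rather than mouse genes, were well above background, against 4.17% to 9.38% on the others. The part of this signal in the Day2 values below was not tested. The Day7 array was on a second slide, so for every comparison with Day7 the slide and the time point cannot be told apart.

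**Figure D1:**
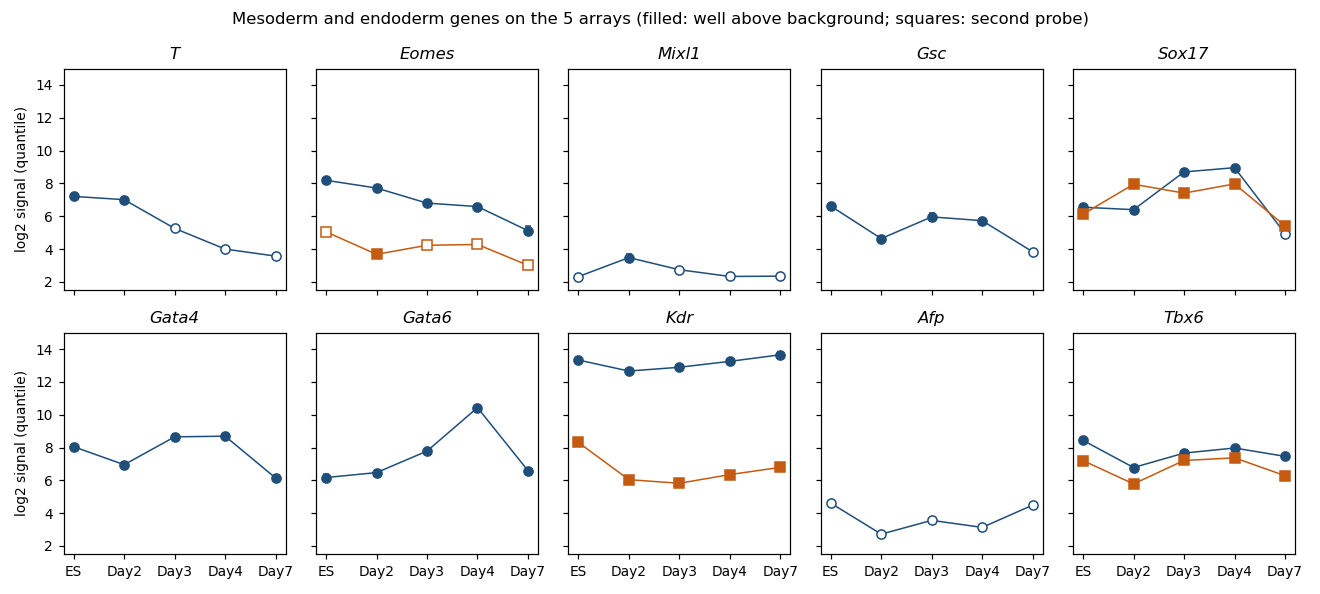
Quantile-normalized log2 signal (vertical axis) of the 10 genes on the ES, Day2, Day3, Day4 and Day7 arrays, 1 array per time point, with lines only joining the values of a probe. Filled symbols are well above background, open symbols are not, squares are the second probe of a gene, and bars, mostly smaller than the symbols, are the scanner's error. T and Eomes are highest in ES cells, Gata6 stands highest on Day4, Sox17 and Gata4 are close on Day3 and Day4, and Mixl1 and Afp lie near the floor of the arrays.

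The number of these genes well above background was 8 of 10 in ES cells and 9 on Day2, then 7 on both Day3 and Day4, and 5 on Day7. Over all genes the shares above background were 73.0% (ES), 91.7% (Day2), 72.7% (Day3), 77.6% (Day4) and 76.2% (Day7). The 5 on Day7 were Eomes, Gata4, Gata6, Kdr and Tbx6, counted on the brightest probe of each gene, and counting any probe made them 6, with Sox17. Afp was not well above background on any array, and Mixl1 only on Day2. Among the 9 genes detected anywhere, 4 had their highest value in ES cells (T, Eomes, Gsc and Tbx6), 3 on Day4 (Sox17, Gata4 and Gata6), 1 on Day7 (Kdr), 1 on Day2 (Mixl1) and 0 on Day3. Over all 18633 genes detected anywhere, the shares were 23.7% in ES cells, 13.6% on Day4, 27.6% on Day7, 21.6% on Day2 and 13.5% on Day3. The ES rank of T and of Eomes depended on the scaling of the Day2 array, since before normalization both had more signal on Day2, at 247 intensity units against 156 for T and 351 against 314 for Eomes. Before normalization Gata4 and the brighter Sox17 probe were higher on Day3 (302 and 315 units) than on Day4 (237 and 286), and the second Sox17 probe was highest on Day2, so only for Gata6 did Day4 rank first both before and after normalization. With the 75th percentile scaling Kdr was lower on Day7 than in ES cells, by -0.29 on the log2 scale. These ranks also depended on the probe. After quantile normalization the second Tbx6 probe was highest on Day4 (7.37 against 7.20 in ES cells). The second Kdr probe was highest in ES cells (8.31 against 6.79 on Day7). In bulk RNA of this kind, fewer cells of a type and less RNA per cell cannot be told apart.

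T was well above background on the first pair of arrays. It read 7.21 ± 0.16 in ES cells and 7.01 ± 0.15 on Day2. On Day3 (5.26), Day4 (4.0) and Day7 (3.57) its probe was no longer well above background. On Day2 it lay below the 95th percentile of the spike-in probes on that array (7.39), and the 3 later values bound the level only from above. T was thus at least 3.85-fold lower on Day3 than in ES cells (log2 change at most -1.95), at least 7.64-fold lower on Day4 and at least 5.86-fold lower on Day7. The smaller bound on Day7 reflects a higher floor on that array, 4.66 against 4.27 on Day4, and not a measured return. These bounds depended on the background correction: with normexp, which models the background of each spot, the log2 changes were at most -1.0, -1.19 and -1.25. Between ES cells and Day2 the change of T was -0.20 ± 0.22, but 0.44 with arrays scaled to their 75th percentile and 0.67 without normalization, so no direction can be given.

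Of T, Eomes, Mixl1 and Gsc, Eomes alone stayed well above background throughout. It read 8.19 ± 0.15 (ES), 7.72 ± 0.15 (Day2), 6.80 ± 0.17 (Day3), 6.59 ± 0.16 (Day4) and 5.12 ± 0.28 (Day7). After quantile normalization each array was lower than the one before it, and the drop between Day3 and Day4 (log2 change -0.20 ± 0.23) was within the scanner's error. The ES to Day2 change was -0.07 with the 75th percentile scaling and 0.16 without normalization, so that step has no firm direction. From ES cells the change was -0.47 ± 0.21 on Day2, which did not reach 2-fold, -1.39 ± 0.23 on Day3, -1.59 ± 0.22 on Day4 and -3.07 ± 0.32 on Day7, an 8.37-fold difference. A second Eomes probe was well above background on Day2 alone, at 3.68, and gives no fold.

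Gsc read 6.62 ± 0.18 in ES cells, 4.64 ± 0.16 on Day2, 5.96 ± 0.22 on Day3 and 5.73 ± 0.18 on Day4, and was not well above background on Day7 (3.83). After quantile normalization the Day2 value was the lowest of those detected, 3.94-fold below ES cells, but this rank depended on the scaling. Before normalization the ES, Day2, Day3 and Day4 signals were 101, 83.5, 39.3 and 27.9 intensity units, and with the 75th percentile scaling the log2 changes from ES cells were -0.51, -0.86 and -0.90, so that on either scale Day2 was above Day3 and Day4. Day3 and Day4 differed from ES cells by -0.66 ± 0.29 and -0.89 ± 0.25, short of 2-fold, and Day7 was at least 3.89-fold lower.

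Tbx6 was well above background on every array with both of its probes. The brighter probe read 8.43 ± 0.15 (ES), 6.78 ± 0.15 (Day2), 7.66 ± 0.15 (Day3), 7.97 ± 0.15 (Day4) and 7.46 ± 0.15 (Day7). The other probe read 7.20, 5.78, 7.21, 7.37 and 6.28 on the same arrays. Both probes were lowest on Day2, by 3.15-fold and 2.68-fold from ES cells, and neither was 2-fold from ES cells on Day3, Day4 or Day7. The Day2 drop of the brighter probe was -1.65 on the log2 scale, but -0.99 with the 75th percentile scaling and -0.77 without normalization, and before normalization both probes were dimmer on Day4 (143 and 93.3 units) than on Day2 (222 and 140). The brighter probe came close on Day7, with a log2 change of -0.97 ± 0.21.

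Mixl1 was detected at 3.48 ± 0.19 on Day2. It failed the background criterion on the other 4 arrays, at 2.32 in ES cells, 2.74 on Day3, 2.33 on Day4 and 2.35 on Day7. Its Day2 level lay below the floor of every other array, so no fold can be given, and Day2 is the array on which most spike-in probes were also above background.

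Of the endoderm factors, Gata6 read 6.17 ± 0.23 (ES), 6.47 ± 0.15 (Day2), 7.78 ± 0.15 (Day3), 10.43 ± 0.14 (Day4) and 6.59 ± 0.17 (Day7). The Day4 value stood far above the rest, 19.2-fold over ES cells (log2 change 4.27 ± 0.27) and 6.30-fold over Day3. By Day7 it was 14.4-fold lower than on Day4 and within 2-fold of ES cells (log2 change 0.42 ± 0.28). It was the largest change of any of the 10 genes among those that could be measured on both arrays.

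Sox17 was also high on Day3 and Day4, but its probes disagreed on Day2. The brighter probe on average read 6.55 ± 0.19 in ES cells, 6.40 ± 0.15 on Day2, 8.70 ± 0.15 on Day3 and 8.96 ± 0.14 on Day4, and was not well above background on Day7 (4.94). The other probe read 6.13 ± 0.21, 7.95 ± 0.15, 7.41 ± 0.16, 7.97 ± 0.15 and 5.41 ± 0.24 on the 5 arrays. From ES to Day4 the first probe rose 5.33-fold and the second 3.58-fold. On Day2 the first was 1.11-fold below ES cells and the second 3.52-fold above, so whether Sox17 was raised within 8 hours of RA depends on the probe. From Day4 to Day7 both dropped, the first by at least 16.2-fold and the second by 5.92-fold.

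Gata4 was measured on all 5 arrays, at 8.05 ± 0.15 (ES), 6.95 ± 0.15 (Day2), 8.65 ± 0.15 (Day3), 8.69 ± 0.15 (Day4) and 6.14 ± 0.19 (Day7). Its Day3 and Day4 values were within 2-fold of that of ES cells (log2 changes 0.60 ± 0.21 and 0.64 ± 0.21), and the latter was -0.27 without normalization, so it gives no direction. It was 2.13-fold lower on Day2 than in ES cells, a call lost under other scalings (log2 change -1.09, or as small as -0.24), and 3.74-fold lower on Day7. Between Day4 and Day7 it was lowered 5.83-fold.

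Kdr was bright on one probe and dim on the other, and the probes did not move alike. The brighter probe read 13.33 ± 0.14 (ES), 12.66 ± 0.14 (Day2), 12.89 ± 0.14 (Day3), 13.25 ± 0.14 (Day4) and 13.65 ± 0.14 (Day7), a range of 0.99 on the log2 scale with no change of 2-fold from ES cells. The other probe, which has 10 spots on each array, read 8.31 in ES cells and 6.04, 5.82, 6.35 and 6.79 on the later arrays, with an SD of 0.071 to 0.166 over its spots. On this probe ES cells were above every other time point, by 4.84-fold over Day2, 5.61-fold over Day3, 3.91-fold over Day4 and 2.88-fold over Day7. Which probe follows the Kdr transcript could not be settled from these files, so both are given, and the counts below use the brighter one.

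Afp, with 10 spots on each array, read 4.61, 2.72, 3.56, 3.13 and 4.49 from ES to Day7, and none of these values was well above background. By this flag Afp was not detected on any array, including those on which Gata6 and Sox17 were highest. By the scanner's looser flag, which asks only for a signal significantly above background, all 10 genes passed on Day2. With it 9 passed in ES cells, 8 on Day3, 9 on Day4 and 9 on Day7. Afp and Mixl1 thus cannot both have failed it in ES cells, on Day4 or on Day7.

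**Figure D2:**
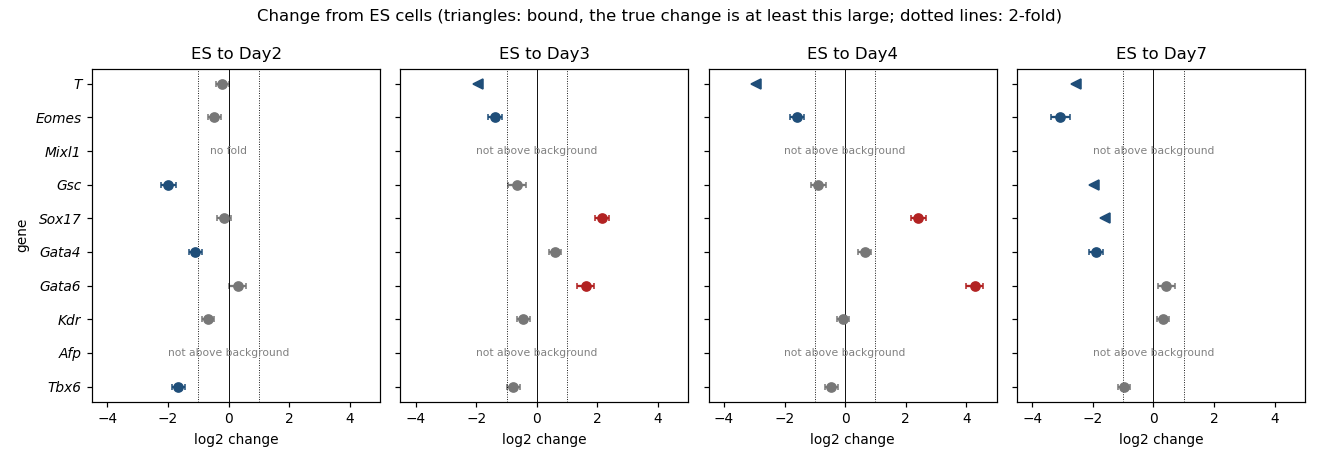
Log2 change of each gene from ES cells to Day2, Day3, Day4 and Day7 (horizontal axis), from the brightest probe. Points are measured on both arrays with the scanner's error as bars, triangles are bounds where the later array was not well above background, dotted lines mark 2-fold, red is raised, blue is lowered and grey is neither. Sox17 and Gata6 are to the right on Day3 and Day4, T and Eomes to the left from Day3 on, and by Day7 no gene lies beyond 2-fold on the right.

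Against ES cells, Day2 had 0 of the 10 genes raised and 3 lowered (Gsc, Gata4 and Tbx6), with 9 that could be read, meaning well above background on at least 1 of the arrays compared. Over the 18312 genes that could be read in this comparison, 8.82% were raised and 11.3% lowered. The median change of the 8 members with a fold was -0.57, against -0.01 for all genes. All 3 lowered genes had Day2 intensities that were lower than in ES cells before normalization too, at 83.5 against 101 for Gsc, 241 against 285 for Gata4 and 222 against 378 for the brighter Tbx6 probe, but by less than 2-fold. Scaling each array to its 75th percentile lost all 3 calls (-0.51 for Gsc, -0.47 for Gata4 and -0.99 for Tbx6), gave Gata6 as raised (1.15) and Kdr as lowered (-1.07), and over all changed genes moved the share raised from 43.9% to 70.2%. On its dim probe Kdr was lowered as well, which these counts leave out.

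On Day3, 2 of the 10 were raised (Sox17 and Gata6) and 2 lowered (T and Eomes), with 8 readable, and the median was -0.55 against 0.07 for all genes. Of the 15199 genes readable in this comparison 14.2% were raised and 10.2% lowered. On Day4 the same 2 genes were raised and the same 2 lowered, with a median of -0.27 against 0.03, where 15.4% of all readable genes were raised and 14.2% lowered. With 2 of 8 in each direction, these counts are of the order of the background and are no result about the 10 genes as a group. Without normalization 5 were lowered on each of these days, when 32.9% and 52.7% of all readable genes were. With normexp the Day3 calls of Gata6 (0.90) and Eomes (-0.95) were lost.

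On Day7, 0 of the 10 were raised and 5 were lowered (T, Eomes, Gsc, Sox17 and Gata4) of the 8 that could be read, with a median change of -1.76. Over all genes 23.2% were raised and 24.4% lowered from ES to Day7, with a median of -0.08. Gata6, Kdr and Tbx6 made up the rest of those read, at 0.42, 0.32 and -0.97. With normexp the calls of Gsc (-0.95) and Sox17 (-0.68) were lost, and with the 75th percentile scaling, the deposited values or quantile normalization without the Day2 array Tbx6 was lowered as well (-1.04, -1.04 and -1.03). On its dim probe Kdr was lowered too. On its second probe Sox17 was not, with a change of -0.73 ± 0.32 measured on both arrays.

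Between Day4 and Day7, 0 were raised and 5 lowered (Eomes, Gsc, Sox17, Gata4 and Gata6) of 7 readable, with a median of -1.47 against -0.13 for all genes. The background was 17.8% raised and 18.1% lowered. The drops of Sox17, Gata4 and Gata6 passed 2-fold under every processing that gave a value, although the bound for Sox17 moved from -4.02 on the log2 scale to -2.42 with normexp. The other calls were less firm. Eomes (-1.47) was at -0.46 without normalization and -0.69 with normexp, and Gsc (at most -1.07) was at most -0.08, -0.56 and -0.80 without normalization, with normexp and with a floor set by the spike-in probes. Tbx6 changed by -0.51 on its brighter probe and -1.09 on the other, and Kdr by 0.40 and 0.44. Because Day4 and Day7 were on different slides, the slide and the time point cannot be told apart for these drops. The ES and Day4 arrays shared a slide, so the Day4 gains of Gata6 and Sox17 do not carry that limit.

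**Figure D3:**
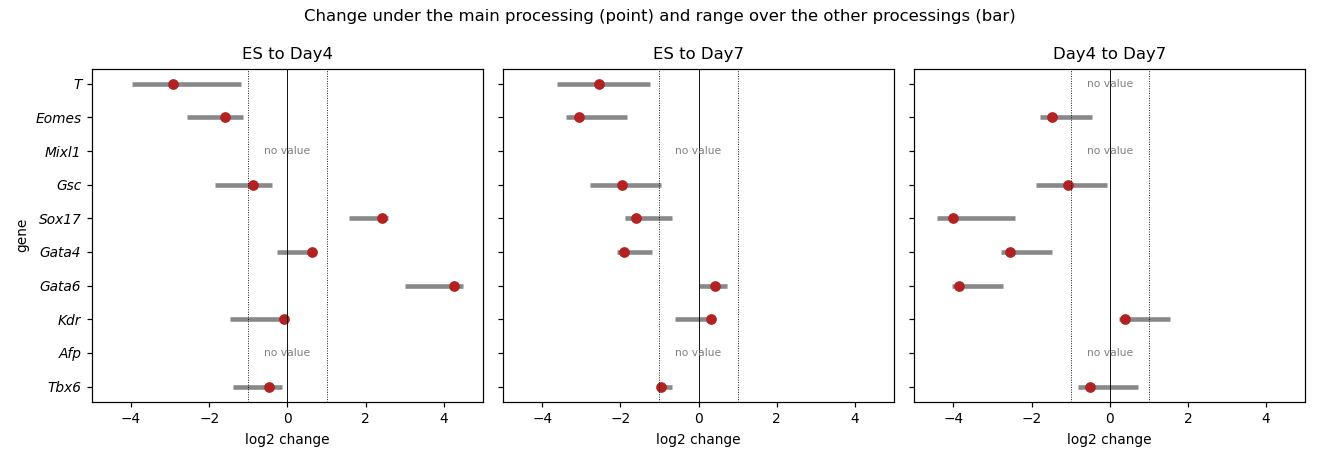
Log2 change of each gene under the main processing (red points) and its lowest to highest value over the other processings (grey bars), for ES to Day4, ES to Day7 and Day4 to Day7. Gata6 and Sox17 stay to the right of 2-fold from ES to Day4 and to the left of 2-fold from Day4 to Day7, while the bars of Gata4 (ES to Day4), Kdr (ES to Day7) and Tbx6 (Day4 to Day7) cross 0.

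The size of these changes moved with the processing more than their direction did. Over the alternatives tried, the ES to Day4 change of Gata6 ran from 3.01 to 4.48 and that of Sox17 from 1.57 to 2.56. The ES to Day7 change of Eomes ran from -3.40 to -1.82 and that of Gata4 from -2.09 to -1.20. These ranges lie on the same side of 2-fold throughout. The ES to Day4 change of Gata4 ran from -0.27 to 0.69 and gives no direction.

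For each gene well above background on at least 3 arrays, the 3 genes with the nearest course were found by the root mean square difference of the 5 centred log2 values, among 13467 genes detected on the same arrays (13729 for Gsc and Sox17). Eomes had very close neighbours, Xpo4 at 0.04, Polr3g at 0.08 and Abcb4 at 0.09. Kdr (P2ry1 0.03, Parm1 0.06, Oprm1 0.07) and Tbx6 (Twist2 0.09, Bmx 0.10, AA986860 0.10) also ran within the scanner's error of theirs. Gata6 had the largest distances, its nearest genes being Gas1 at 0.37, Tec at 0.41 and Lhfpl2 at 0.50. The distance was not scaled by the range of a gene, 4.27 on the log2 scale for Gata6 and 0.99 for Kdr. Distances of different genes are thus not a ranking of how unusual their courses were. Sox17 lay nearest to Itga5 (0.19), Espn (0.21) and Actn1 (0.27), Gata4 to Gse1 (0.11), B4galnt2 (0.13) and Rmi2 (0.17), and Gsc to Esrp2 (0.17), Rab11fip1 (0.19) and Rasal1 (0.20). With 5 points per gene and so many candidates, near neighbours are to be found for many courses.

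To set the 10 genes beside others of the same lineages, 69 further genes in 6 lists were read on the same arrays. The shares raised and lowered over all readable genes are given beside the counts of each list, and no list was tested against them. In the primitive streak list, 7, 8, 5, 7 and 6 of 10 genes were well above background from ES to Day7, and Wnt3a and Cer1 were so on no array. Such counts are to be read against the shares of all genes above background given earlier. From ES to Day7, 0 were raised and 3 lowered of 7 readable, against 23.2% and 24.4% of all readable genes. Nodal, the TGF-beta family signal that induces the streak, was lowered 8.56-fold, from 12.82 in ES cells to 9.73, and Lefty2, which encodes its secreted inhibitor, 4.11-fold. Mesp2, a factor of early mesoderm and somite boundaries, was at least 5.22-fold lower. Lhx1, a homeobox gene of the streak and also of spinal interneurons and motor neurons, was 2.53-fold higher on Day4 than in ES cells. Fgf8 read 7.50 in ES cells and 9.72 on Day2, but its other probes did not share this rise (6.22 and 5.94 on the second, and 3.92 on Day2 on the third).

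In the embryonic endoderm list, 3 of 6 were raised and 2 lowered from ES to Day7, against 23.2% and 24.4% of all readable genes. Foxa2, which defines definitive endoderm and also the floor plate of the neural tube, rose from 6.59 in ES cells to 9.55, 10.36, 11.52 and 14.12 on the later arrays. Foxa1 rose 41.5-fold by Day7, and Cxcr4, a chemokine receptor of definitive endoderm that migrating neurons also carry, 15.6-fold. These 3 were higher on Day7 than on Day4, whereas Sox17, Gata4 and Gata6 were lower. Hhex, an early marker of anterior endoderm, fell 6.77-fold and Foxa3 at least 3.72-fold.

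In the extraembryonic endoderm list, 5 of 15 readable genes were raised and 3 lowered from ES to Day4, and 3 of 13 were raised and 4 lowered from ES to Day7. Over all readable genes 15.4% were raised and 14.2% lowered on Day4, and 23.2% and 24.4% on Day7. After normalization the basement membrane collagens Col4a1 and Col4a2 were highest on Day4, as Gata6 was, at 6.05-fold and 10.8-fold over ES cells, and remained 3.35-fold and 4.25-fold higher on Day7. Before it Col4a1 had more signal on Day7 (3780 units) than on Day4 (2780), and Col4a2 nearly the same (3220 and 3270). The laminin gene Lama1 was 2.51-fold higher on Day4 than in ES cells and 3.15-fold lower again on Day7. Pdgfra, which marks primitive endoderm and also paraxial mesoderm and glial progenitors, was undetected in ES cells and was at least 4.80-fold higher on Day3, at least 5.73-fold on Day4 and at least 6.0-fold on Day7. The 4 lowered by Day7 were Lrp2 (6.32-fold) and Amn (2.64-fold), which act in protein uptake by visceral endoderm, Sox7 (2.73-fold) and Apob (at least 2.05-fold). Other visceral endoderm genes of the list were within 2-fold of ES cells on Day7, Cubn at 0.67, Dab2 at 0.46 and Rbp4 at 0.01. Apoa1 and Ttr, which encode secreted proteins of yolk sac endoderm, were undetected both in ES cells and on Day7, and Ttr reached 5.93 on Day3. Hnf4a read 9.97 on Day2 and 4.76 or less on the other 4 arrays.

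In the blood and endothelium list, 3 of 15 readable genes were raised and 7 lowered from ES to Day4, and 3 of 14 were raised and 7 lowered from ES to Day7. The shares over all readable genes were 15.4% raised and 14.2% lowered on Day4, and 23.2% and 24.4% on Day7. The embryonic globins of the yolk sac stood out among those raised. Hbb-bh1 read 7.08, 10.65, 12.52, 12.27 and 8.53 from ES to Day7, a 43.5-fold gain by Day3. Hba-x was undetected in ES cells and read 6.92, 10.75, 10.87 and 7.30 on the later arrays, at least 58.1-fold higher on Day4. Both were highest on Day3 and Day4 and lower again on Day7, and Hbb-bh1 was already 11.9-fold over ES cells on Day2. Etv2, the factor that starts the haemato-endothelial programme, fell from 11.36 in ES cells to 8.07 on Day3 and 5.95 on Day7. Cd34 was lowered 11.4-fold, Tek at least 8.66-fold and Gata1 at least 7.39-fold from ES to Day7. Cdh5, the cadherin of endothelial junctions, rose, by at least 11.8-fold on Day7. Runx1, a blood factor that some motor neurons also express, changed by 0.09 from ES to Day7 on its main probe, but a second probe was undetected up to Day4 and at least 22.9-fold higher on Day7 than in ES cells. It was picked out after its values were seen, for this disagreement. A second Cd34 probe was detected on Day2, Day3 and Day4 alone, at 3.16, 6.75 and 6.25, so that the fall rests on the brighter probe.

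In the paraxial mesoderm list, 4 genes were well above background in ES cells and 10, 6, 8 and 7 of 11 on the later arrays, and Myf5, a skeletal muscle factor, was so on none. From ES to Day4, 3 of 8 readable genes were raised and 2 lowered, and from ES to Day7, 4 were raised and 2 lowered. Of all readable genes 15.4% were raised and 14.2% lowered on Day4, and 23.2% and 24.4% on Day7. Meox1, Foxc1 and Foxc2, factors of the somites and presomitic mesoderm, were undetected in ES cells. On Day2 they were flagged above background at 3.30, 5.34 and 4.53, which gives no 2-fold change, and they were raised from Day3 on. Meox1 read 10.14 on Day3, 9.39 on Day4 and 7.34 on Day7, at least 35.0-fold over ES cells at its highest. Foxc1 was highest on Day3, at least 20.7-fold over ES cells, and Foxc2 on Day4, at least 47.6-fold. All 3 were lower on Day7 than on Day4, by 4.13-fold, 2.87-fold and 17.4-fold. Meox2 was raised on Day7, at least 2.39-fold over ES cells. Tcf15, a somite factor that ES cells also express, was lowered 13.9-fold, from 12.46 to 8.67, and Pax1, of the sclerotome, at least 2.67-fold. Ripply2 was high on Day2 alone, at 11.07 against 7.88 to 8.15 on the other arrays.

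In the cardiac list, 4 of 10 readable genes were raised and 2 lowered from ES to Day4, and 2 of 9 were raised and 3 lowered from ES to Day7. Among all readable genes 15.4% were raised and 14.2% lowered on Day4, and 23.2% and 24.4% on Day7. From Day4 to Day7, a comparison added after the data were seen, 2 of 10 were raised and 7 lowered, against 17.8% and 18.1% of all readable genes. Actc1, the cardiac actin gene, read 8.63, 9.64, 11.12, 11.51 and 8.47 from ES to Day7, and Hand2 was at least 8.20-fold higher on Day4 than in ES cells and 5.96-fold lower on Day7. Myl7, an atrial myosin light chain, was at least 2.74-fold higher on Day4. The heart factor Nkx2-5 was 7.36-fold lower on Day7 than in ES cells, and the myosin genes Myh6 and Myh7 were 22.3-fold and 2.55-fold lower, though a second Myh6 probe was detected on Day2 alone. Tbx5 was raised at least 2.72-fold on Day7. Tbx20, a T-box gene of heart and also of hindbrain motor neurons, was 4.97-fold higher on Day7 than in ES cells on its main probe. That probe was highest on Day2 (8.97, against 7.88 on Day7), while the other probes were undetected on Day2 and highest on Day7, at 10.77 and 7.08.

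**Figure D4:**
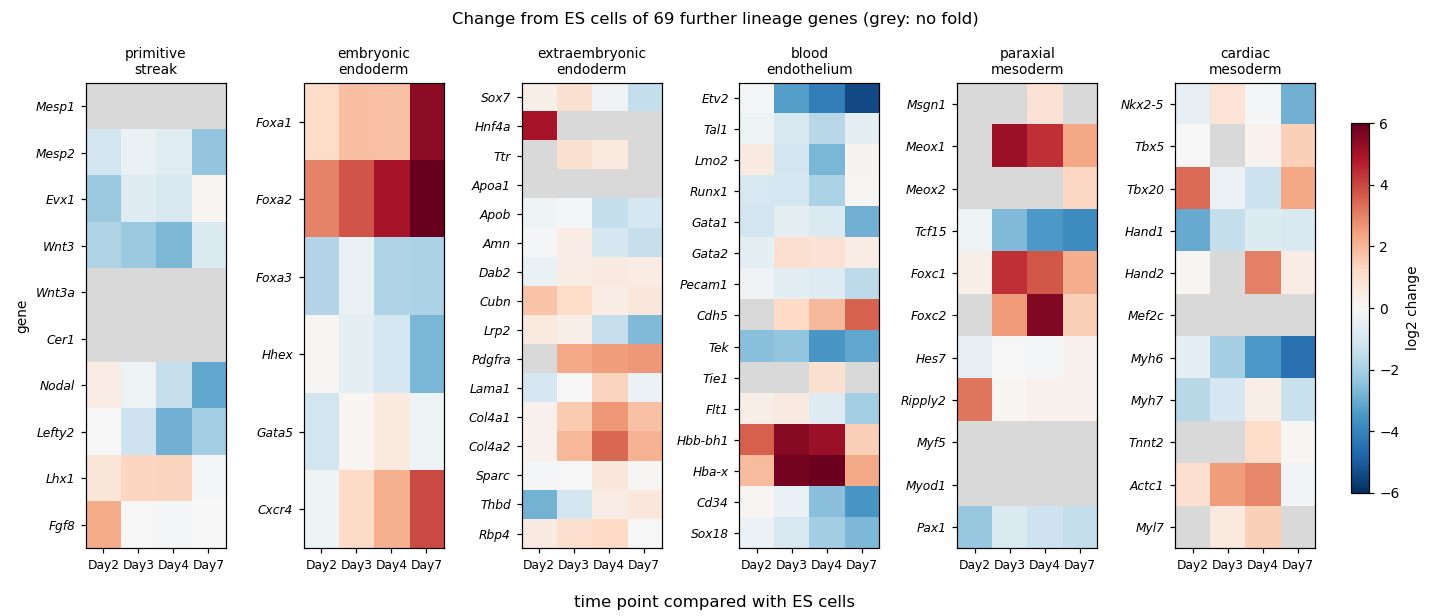
Log2 change from ES cells to Day2, Day3, Day4 and Day7 (columns) of 69 further lineage genes (rows) in 6 lists, red for higher and blue for lower, with the colour scale ending at 6 on either side and grey where no fold could be given. Bounds are drawn at their value. Hbb-bh1, Hba-x, Meox1, Foxc1 and Foxc2 are darkest on Day3 and Day4, Foxa1, Foxa2 and Cxcr4 on Day7, and Etv2, Tcf15 and Myh6 become bluer towards Day7.

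On Day4, when Gata6 stood at 10.43, the progenitor markers Pax6 and Nkx6-1 read 10.28 and 12.73, against 6.77 and 6.72 in ES cells. The other progenitor markers read, gained less on their main probes. Olig2 stood at 11.47 against 10.34, and Sox1 at 10.05 against 9.44, short of 2-fold. A second Sox1 probe rose from 6.38 to 8.81. A second Pax6 probe was undetected in ES cells and read only 5.62 on Day4. A whole-culture measurement does not say whether these transcripts were in the same cells, and the part of off-lineage cells in any of these values was not tested.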

How the data were processed

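Transcripts were measured in 5 samples, 1 array per time point, grouped from GEO's labels. The authors deposited the scanner output of Agilent Feature Extraction (version 10.5.1 per the submitters' processing notes), with the intensity of each spot after the software's background subtraction and detrending, its error and its flags. They also deposited a log2 table, which on all 5 arrays equals log2 of the processed intensity minus a constant close to the array's 75th percentile, for 100% of probes within 0.01. No column belonged to another sample.

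Control spots and outlier spots were left out, replicate spots were averaged after log2 transformation, and arrays were quantile-normalized in limma 3.58.1 (R 4.3.3). A legend of the study names a Quantile analysis without saying which kind. No pseudocount was used. Later steps ran in Python 3.11.15 with numpy 2.4.6, pandas 2.3.3 and matplotlib 3.10.9. Accessions of 26296 of 55681 mouse probes matched a RefSeq symbol (GRCm38.p6, used for names and promoter windows), giving 19893 genes. The 5339 genes with several probes were represented by the brightest on average, and every probe of the 10 genes is reported. A probe was well above background on an array where over 50% of its spots were flagged so. Where 1 side of a comparison was not, the change is a bound against the higher of the probe's own value and the lowest signal among probes well above background (log2 5.01, 2.66, 5.22, 4.27 and 4.66 from ES to Day7). No spot of the 10 genes was saturated. The number of arrays limits the precision.

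With 1 array per time point no test was possible, and changes of 2-fold or more were counted. The genes and lists were chosen with earlier results of these data known. 1 gene was taken out of the embryonic endoderm list and is not reported here. Most genes of the 6 lists were named by rule: up to 4 in each direction by size from ES to Day7, and up to 3 that were highest between ES and Day7 and 2-fold above both. Wnt3a, Cer1, Cubn, Dab2, Rbp4, Apoa1, Ttr, Myf5 and Runx1 were named outside this rule. The calling code was checked on made-up arrays with known changes. Alternatives covered the scaling, background correction (normexp with offset 50, on median spot signals), flags, floor, choice of probe and fold threshold. A slide term could not be estimated, since no time point was on both slides.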

Additional observations from a re-analysis of the deposited data

How the results depend on the processing

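No paired analysis was possible because there was a single array per time point, and no replicate could be left out. Alternatives were computed for the 10 genes from ES cells and from Day4 to Day7, and there no change of 2-fold or more turned its sign. Smaller changes did: from ES to Day2 T reached 0.67, Eomes 0.16 and Sox17 0.95, Gata4 reached -0.27 from ES to Day4, Kdr -0.60 from ES to Day7 and Tbx6 0.72 from Day4 to Day7. Other steps and the further lists were not recomputed. From Day2 to Day3 Gsc (1.32) and Gata6 (1.31) rose after quantile normalization. Before it their signals were lower on Day3, at 39.3 against 83.5 and 158 against 192 units. Those of Sox17 and Gata4, also raised in this step, were higher on Day3. Counts stayed within 1.5 times in 96 recomputations and moved further in 32. Changes of single genes moved by less than the scanner's error in 259 recomputations and by more in 111. Many of the 259 were fixed in advance, since another flag or filter leaves a change measured on both arrays as it was. The deposited values also nearly repeat the 75th percentile shift. These tallies are thus no measure of how firm the changes are. From ES to Day2, 1 gene was raised with a 75th percentile shift, without normalization, with the deposited log2 values, with the looser detection flag (gIsPosAndSignif) and without floor or filter. In that comparison 1 gene was lowered with the 75th percentile shift, the deposited values, normexp or a floor from the ERCC probes, and 0 without normalization or at 4-fold. From ES to Day3, normexp gave 1 raised and 1 lowered, 4-fold gave 1 raised and 0 lowered, no normalization gave 5 lowered, 1.5-fold gave 4 lowered, and 1 was lowered when detection on both arrays was required. From ES to Day4, 5 were lowered without normalization, 1 with detection on both arrays and 1 at 4-fold. From ES to Day7, 3 were lowered with normexp, 2 with detection on both arrays and 2 at 4-fold. From Day4 to Day7, a comparison added after seeing the data, 1 was raised without normalization, with the looser flag and without floor or filter, and 3 were lowered without normalization, with normexp, with detection on both arrays and at 4-fold. The looser flag detected 9 of the 10 genes on Day7. The cause was not tested, other than that a higher threshold or stricter detection counts fewer genes by construction.

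Without normalization the median change of all genes was 0.23, -0.64, -1.13 and 0 from ES to Day2, Day3, Day4 and Day7, against -0.01, 0.07, 0.03 and -0.08 with quantile normalization, and the 75th percentile shift gave a median of -0.38 from ES to Day7. The share of changed genes that were raised was 58.1% from ES to Day3 and 52.0% from ES to Day4, against 16.2% and 8.12% without normalization. From ES to Day3 it was 45.9% with the 75th percentile shift. From ES to Day7 it was 48.7%, against 39.1%. From Day4 to Day7 it was 49.5%, against 94.0% without normalization. On Day2, a floor at the 95th percentile of the ERCC probes (log2 7.39) left 2 of the 10 genes above it.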
